A study of Mus musculus with 7 samples.

Results

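The AMPA and kainate receptor subunits are 9 genes, *Gria1* to *Gria4* and *Grik1* to *Grik5*, and all 9 were found by symbol among the 33696 genes of the snRNA-seq library of cultured BB-p53n OPCs. They were read in the 8917 of 10047 barcodes that had 2000 to 8000 detected genes. BB-p53n OPCs are primary oligodendrocyte progenitor cells from C57BL/6 *Trp53* fl/fl pups of either sex at postnatal day 5 to 7, selected with an antibody against PDGFRα and transduced with a PDGFB-IRES-CRE retrovirus, so that *Trp53* is deleted and PDGFB is overexpressed. The study lists 7 samples, of which the 3 early and 3 late tumors from brain were left out here, and OPCs without the deletion or the virus were not analysed either. How many pups were pooled is not given in the sources used here. The culture is therefore 1 library with no replicate and no control, no difference between nuclei was tested, and every interval covers counting error only.

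AMPA receptors carry most fast excitatory transmission in the brain and are assembled from GluA subunits, which the *Gria* genes encode. GluA2, from *Gria2*, is the subunit whose messenger RNA is edited by ADAR2 at the Q/R site in the channel pore, and an AMPA receptor that holds edited GluA2 lets little calcium through, while one without it is calcium-permeable. Kainate receptors are built from GluK1 to GluK3 (*Grik1* to *Grik3*), which can form channels by themselves, and from GluK4 and GluK5 (*Grik4* and *Grik5*), which need one of the former as a partner. OPCs are known to carry AMPA receptors and to receive glutamatergic synapses from axons.

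The Q/R site is where the subunits differ in what they let through, and the genome holds a glutamine codon there in all 9 genes. In the lines below, the coding strand of GRCm39 is written 5′ to 3′ around the site of each AMPA subunit and of *Grik1* and *Grik2*, the kainate subunits that are also known to be edited. The 3 capitals mark the codon of the site.
Gria1: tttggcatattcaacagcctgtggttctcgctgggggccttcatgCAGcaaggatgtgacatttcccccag
Gria2: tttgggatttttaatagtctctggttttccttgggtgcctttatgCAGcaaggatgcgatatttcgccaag
Gria3: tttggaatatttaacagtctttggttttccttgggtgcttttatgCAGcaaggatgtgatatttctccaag
Gria4: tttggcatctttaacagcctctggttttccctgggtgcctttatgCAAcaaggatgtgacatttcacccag
Grik1: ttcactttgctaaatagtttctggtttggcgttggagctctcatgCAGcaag
Grik2: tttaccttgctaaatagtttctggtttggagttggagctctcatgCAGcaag
The 6 windows are exonic and protein-coding. They lie at chr11:57133875-57133945 on the plus strand for *Gria1*, chr3:80614195-80614265 on the minus strand for *Gria2*, chrX:40699097-40699167 on the plus strand for *Gria3* and chr9:4464114-4464184 on the minus strand for *Gria4*. The window of *Grik1* lies at chr16:87737426-87737477 and that of *Grik2* at chr10:49120421-49120472, both on the minus strand. The site is codon 607 of the canonical *Gria2* transcript and codon 600, 612 and 608 of those of *Gria1*, *Gria3* and *Gria4*. Over the 52 bases that all windows share, *Gria2* and *Gria3* had the same base at 47 positions, *Gria2* and *Gria4* at 46, and *Grik1* and *Grik2* at 49. The codon is CAA in *Gria4* and CAG in the other genes, and both encode glutamine, so the arginine of GluA2 arises only in the RNA. UMI counts summed per gene do not show whether a transcript was edited, nor its flip or flop exon, so a *Gria2* count below is a count of *Gria2* transcripts and not of edited ones.

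The kept nuclei held 141138093 UMIs. The median nucleus had 13771 UMIs from 4718 genes, and mitochondrial genes took 6.34% of the UMIs. The label was checked against cell type markers. Levels are given as CPM, the UMIs of a gene over all UMIs of the same nuclei on a common scale. All 10 OPC markers reached 1 CPM, with 6844 CPM in all, while the sums over 10 neuronal and 7 astrocytic markers were 131 and 114 CPM. With the clustering settings of the methods these nuclei formed 8 clusters, numbered by size from 0 and called by these numbers only. Of the 10 neuronal markers 6 reached 1 CPM, and their sum was lowest in cluster 1 (42.6 CPM) and highest in cluster 3 (263 CPM). *Syt1*, a synaptic vesicle gene, made up most of it with 109 CPM, and *Snap25*, *Nefl*, *Rbfox3*, *Camk2a* and *Gad1* were at 8.24, 4.17, 4.04, 3.12 and 2.32 CPM. The order of the sums followed *Syt1*, at 13.6 CPM in cluster 1 and 226 CPM in cluster 3. In cluster 1 *Rbfox3*, *Camk2a* and *Gad1* were above their level in all kept nuclei, at 15.8, 4.69 and 3.97 CPM. *Snap25* and *Nefl* were below it there, at 2.57 and 1.63 CPM. The transmitter genes *Slc17a7*, *Slc17a6*, *Gad2* and *Slc32a1* were at 0.0992, 0.00709, 0.0921 and 0.0354 CPM. The part of the neuronal markers in the subunit levels was not tested.

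The nuclei used here are all that the stated cutoffs on detected genes leave, and the study went on with fewer. The number and mean depth of the nuclei it kept equal those of the kept nuclei with at most 5% mitochondrial UMIs, a limit that its methods do not name. There were 1954 such nuclei, with a mean of 15395.4 UMIs. The clusters here are not those of the study, which shows fewer of them. On the 1954 nuclei *Gria2* was at 356 CPM, *Gria3* at 256 CPM and *Gria4* at 782 CPM, and further values on them stand beside the results below.

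The AMPA subunit transcripts in these nuclei came from *Gria4*, *Gria2* and *Gria3*, and *Gria1* was all but absent. *Gria4* was at 734 CPM (95% exact Poisson interval 729.6 to 739), *Gria2* at 304 CPM (301 to 306) and *Gria3* at 270.0 CPM (267 to 273), from 42837 (*Gria2*), 38109 (*Gria3*) and 103599 (*Gria4*) UMIs. *Gria1*, which encodes GluA1, the main partner of GluA2 in many neurons, had 32 UMIs in 18 nuclei, or 0.227 CPM (0.155 to 0.320), and 9 of these UMIs came from 1 nucleus.

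Among the kainate subunits, *Grik2* was at 413 CPM (409.9 to 417), *Grik3* at 209 CPM (206 to 211) and *Grik1* at 116 CPM (115 to 118). The partner subunits *Grik4* and *Grik5* were at 62.8 CPM (61.5 to 64.1) and 37.3 CPM (36.3 to 38.3). The 4 AMPA genes summed to 1308 CPM and the 5 kainate genes to 839 CPM. For comparison, on the same scale of summed CPM, the 7 NMDA receptor genes reached 145 CPM.

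These genes differ in length, and nuclear RNA holds unspliced transcripts, whose counts can grow with the span of a gene where reads in introns are counted. The methods of the study name the default Cell Ranger pipeline and do not say whether they were counted. A level per span has this meaning only if so. The order of the subunits depended on how length was taken into account. Per 100 kb of gene span, *Gria2* came first of the AMPA genes with 249 CPM, before *Gria4* with 194, *Gria3* with 97.1 and *Gria1* with 0.0711. Per kb of the longest annotated transcript the order was *Gria4* with 113 CPM, *Gria3* with 45.6, *Gria2* with 28.2 and *Gria1* with 0.0368. Of the kainate genes *Grik3* led per 100 kb of span with 93.3 CPM, followed by *Grik2* with 59.6 and *Grik5* with 58.7, whereas *Grik2* led per kb of transcript with 43.8 CPM, followed by *Grik1* with 31.5 and *Grik3* with 22.5. *Gria1* was last among the AMPA genes, and *Grik4* stood behind *Grik1*, *Grik2* and *Grik3*, on both length scales.

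**Figure D1:**
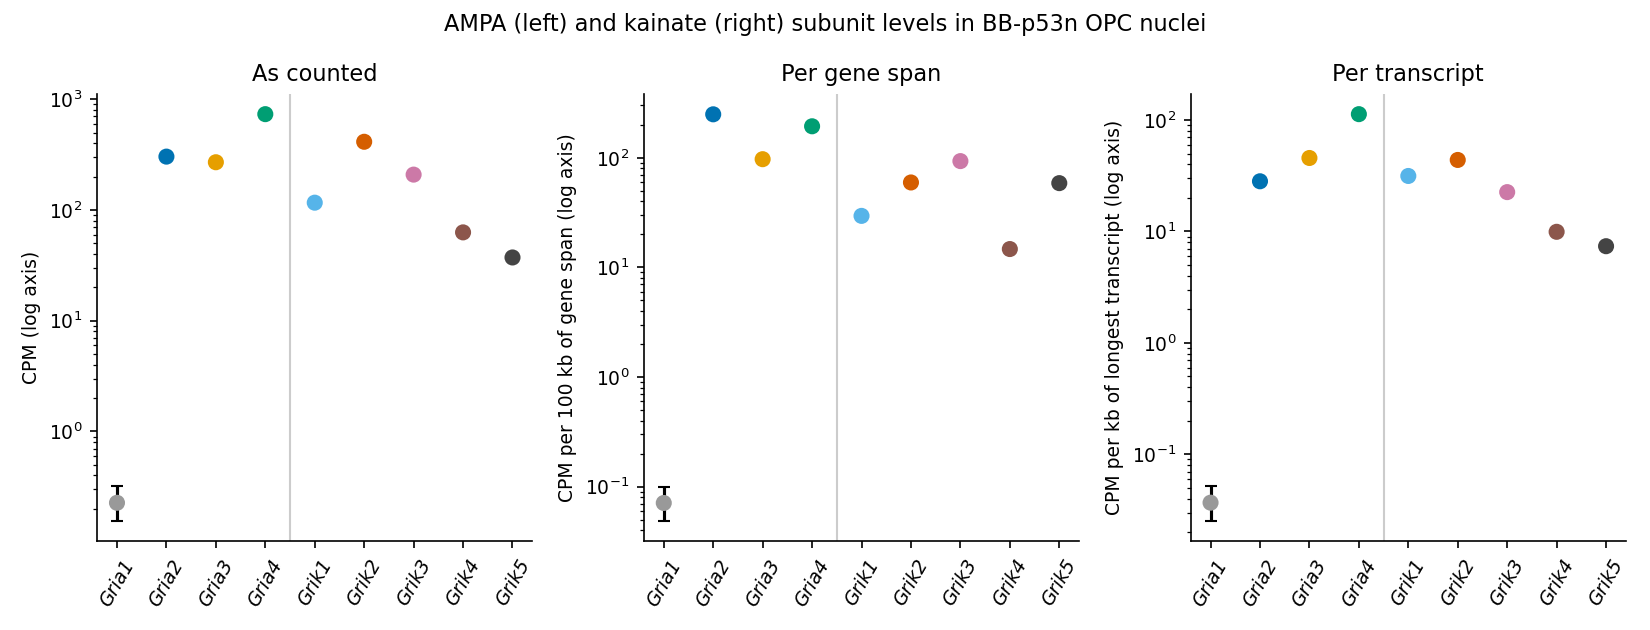
Level of each AMPA and kainate subunit in the kept nuclei as CPM, as CPM per 100 kb of gene span and as CPM per kb of the longest transcript, on log axes, with points for the value and bars for the 95% exact Poisson interval, which is smaller than the point for all genes but *Gria1*. *Gria1* sits at 0.227 CPM, and *Gria2* leads the AMPA genes per span with 249 but stands behind *Gria4* and *Gria3* per transcript.

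*Gria2* supplied 23.2% of the AMPA subunit UMIs as counted (95% Clopper-Pearson interval 23.02 to 23.40), beside 56.1% from *Gria4*, 20.6% from *Gria3* and 0.0173% from *Gria1*. In the 1954 nuclei of at most 5% mitochondrial UMIs the share of *Gria2* was 25.5%. Over all kept nuclei, with UMIs divided by gene span, it was 46.1%, and with UMIs divided by transcript length it was 15.1%. Over all kept nuclei, on all 3 scales most AMPA subunit transcripts came from the genes whose products are not edited at the Q/R site. The length scale set by how much. Per gene span this did not hold in clusters 0 and 1, where *Gria2* gave 55.9% and 59.9%. In the other clusters it gave at most 45.6% on that scale, in cluster 4. The share of *Gria2* did not follow depth closely. Across the quartiles of UMIs per nucleus, whose median depth ran from 8042 to 25454 UMIs, it was 24.8%, 22.95%, 23.07% and 23.01%, while the summed AMPA level was 1104 CPM in the lowest and 1405 CPM in the highest quartile.

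Nuclei were thinned to 5000 UMIs before the presence of subunits was compared, which left out 157 of them and kept 8760. A *Gria4* UMI was seen in 84.7% of the nuclei, *Grik2* in 71.8%, *Gria2* in 67.6% (66.7 to 68.6), *Gria3* in 59.1%, *Grik3* in 53.9%, *Grik1* in 36.2%, *Grik4* in 23.5%, *Grik5* in 17.2% and *Gria1* in 0.0799%. Without thinning, the share for *Gria2* was 86.8%. The library offered no cells known to lack these genes, so free RNA was gauged by sex-linked transcripts. Of the nuclei of cluster 1, 2.32% of the 1596 with an *Xist* UMI also had a Y-linked UMI at this depth, a value that depends on the level of those genes. A doublet of a female and a male nucleus would count here too, and doublets were not removed, so the value is not of free RNA alone. At so few UMIs a low *Gria1* level and free RNA were not separated.

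At least 1 AMPA subunit was seen in 93.3% of the thinned nuclei. *Gria2* together with another subunit was seen in 63.1% (62.1 to 64.1), another subunit without *Gria2* in 25.6% (24.7 to 26.6), *Gria2* alone in 4.57% and none in 6.72%. A nucleus without a *Gria2* UMI at 5000 UMIs is not shown to lack the gene. Only 39 of the 3903 nuclei with at least 20 AMPA UMIs before thinning had no *Gria2* UMI. In these 3903 nuclei *Gria2* took a median of 20% of the AMPA UMIs, with 10% of nuclei at or below 8.33%, 10% at or above 39.4% and a highest value of 81.0%.

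The subunits varied between clusters, mostly through cluster 1. For each cluster the level was set against that in all other nuclei, and a ratio of at least 2 or at most 0.5 was called. Of the 8 members of at least 1 CPM, 6 were past this limit in at least 1 cluster, against a background of 35.0% of all 13787 genes of at least 1 CPM. All 6 were lower (28.8% of genes) and 0 members were higher (20.8% of genes). *Gria1* did not reach 1 CPM, and *Grik1* and *Grik5* stayed within the limits in every cluster. Since 8 of the 9 members, all but *Grik5*, were among the variable genes used for clustering, these ratios are descriptions. Clustering without the members and their related genes placed between 98.1% and 100% of the nuclei of each cluster together again, and there too the ratio of *Gria3* in cluster 1 was 0.0603 and that of *Gria2* 0.350. Counted over the 1954 nuclei of at most 5% mitochondrial UMIs, the same 6 members were past the limit in a cluster, against 46.6% of genes. The ratio of *Gria3* in cluster 1 was then 0.0654 and that of *Gria2* 0.347.

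Cluster 1, with 1733 nuclei, had the lowest summed AMPA level, 359 CPM (351 to 367), and the lowest summed kainate level, 262 CPM (255 to 269). The other clusters had between 754 and 1701 CPM of AMPA and between 851 and 1085 CPM of kainate subunits. The 6 members called lower in cluster 1 (11.6% of genes were) were *Gria3*, *Grik4*, *Grik3*, *Grik2*, *Gria4* and *Gria2*, while 0 members were called higher (9.92% of genes). The ratio was 0.0623 for *Gria3*, 0.0906 for *Grik4*, 0.111 for *Grik3*, 0.169 for *Grik2*, 0.265 for *Gria4* and 0.351 for *Gria2*. *Grik1* was at 0.784 times (0.748 to 0.821) and *Grik5* at 1.57 times (1.47 to 1.68) the level elsewhere. The median gene of those tested stood 0.16 higher on the log2 scale in cluster 1 than elsewhere, opposite to these 6 members.

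Values moving with cluster 1 were the OPC markers, which summed to 1963 CPM there and to 9703 CPM in cluster 0, the highest sum, and *Xist*, since 91.5% of its thinned nuclei had *Xist* and no Y-linked UMI. The OPC markers did not fall alike. *Pdgfra*, *Sox10* and *Lhfpl3* were at 19.4, 5.87 and 123 CPM in cluster 1, against 256, 87.3 and 1953 CPM in all kept nuclei. *Olig1* and *Olig2* were at 520 and 212 CPM there, against 618 and 293 CPM. The median depth of cluster 1 was 11623 UMIs, within the 10006 to 30276 of the other clusters, and its mitochondrial share was 6.52%. Of the genes on the X chromosome with at least 20 CPM, apart from *Gria3*, the median ratio in cluster 1 was 0.998, and for chromosome 16, which carries *Grik1*, it was 1.31. The part of these in the subunit levels was not tested.

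*Gria3* separated cluster 1 from the rest most sharply. Its level in clusters 0 to 7 was 273, 19.7, 389, 266, 342, 282, 396 and 243 CPM, so cluster 1 lay far below all others, and clusters 2 and 6 were highest with overlapping intervals (381 to 398 and 385 to 408). A *Gria3* UMI was seen in 4.93% of the thinned nuclei of cluster 1 and in 54.2% to 80.5% of those of the other clusters.

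*Gria2* had another order. In clusters 0 to 7 it was at 471, 119, 322, 302, 318, 296, 281 and 108 CPM. Cluster 0 was highest, at 1.77 times (1.73 to 1.81) the level elsewhere, which did not reach the limit (1.22% of genes were at least 2-fold higher there, and 0 members were). Clusters 1 and 7 were lowest with overlapping intervals of 114 to 123 and 94.4 to 123 CPM. In the small cluster 7, of 182 nuclei, *Gria2* and *Grik3* were the 2 members called lower (8.17% of genes were), with ratios of 0.351 and 0.437, and *Gria4* was at 0.546 times.

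*Gria4* was lowest in cluster 1, at 219.7 CPM, and next in cluster 7, at 403 CPM. It was highest in clusters 2 and 6, at 989 and 991 CPM, whose intervals overlapped. Clusters 0, 3, 4 and 5 lay between these with 782, 933, 714 and 722 CPM, the last 2 with overlapping intervals.

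**Figure D2:**
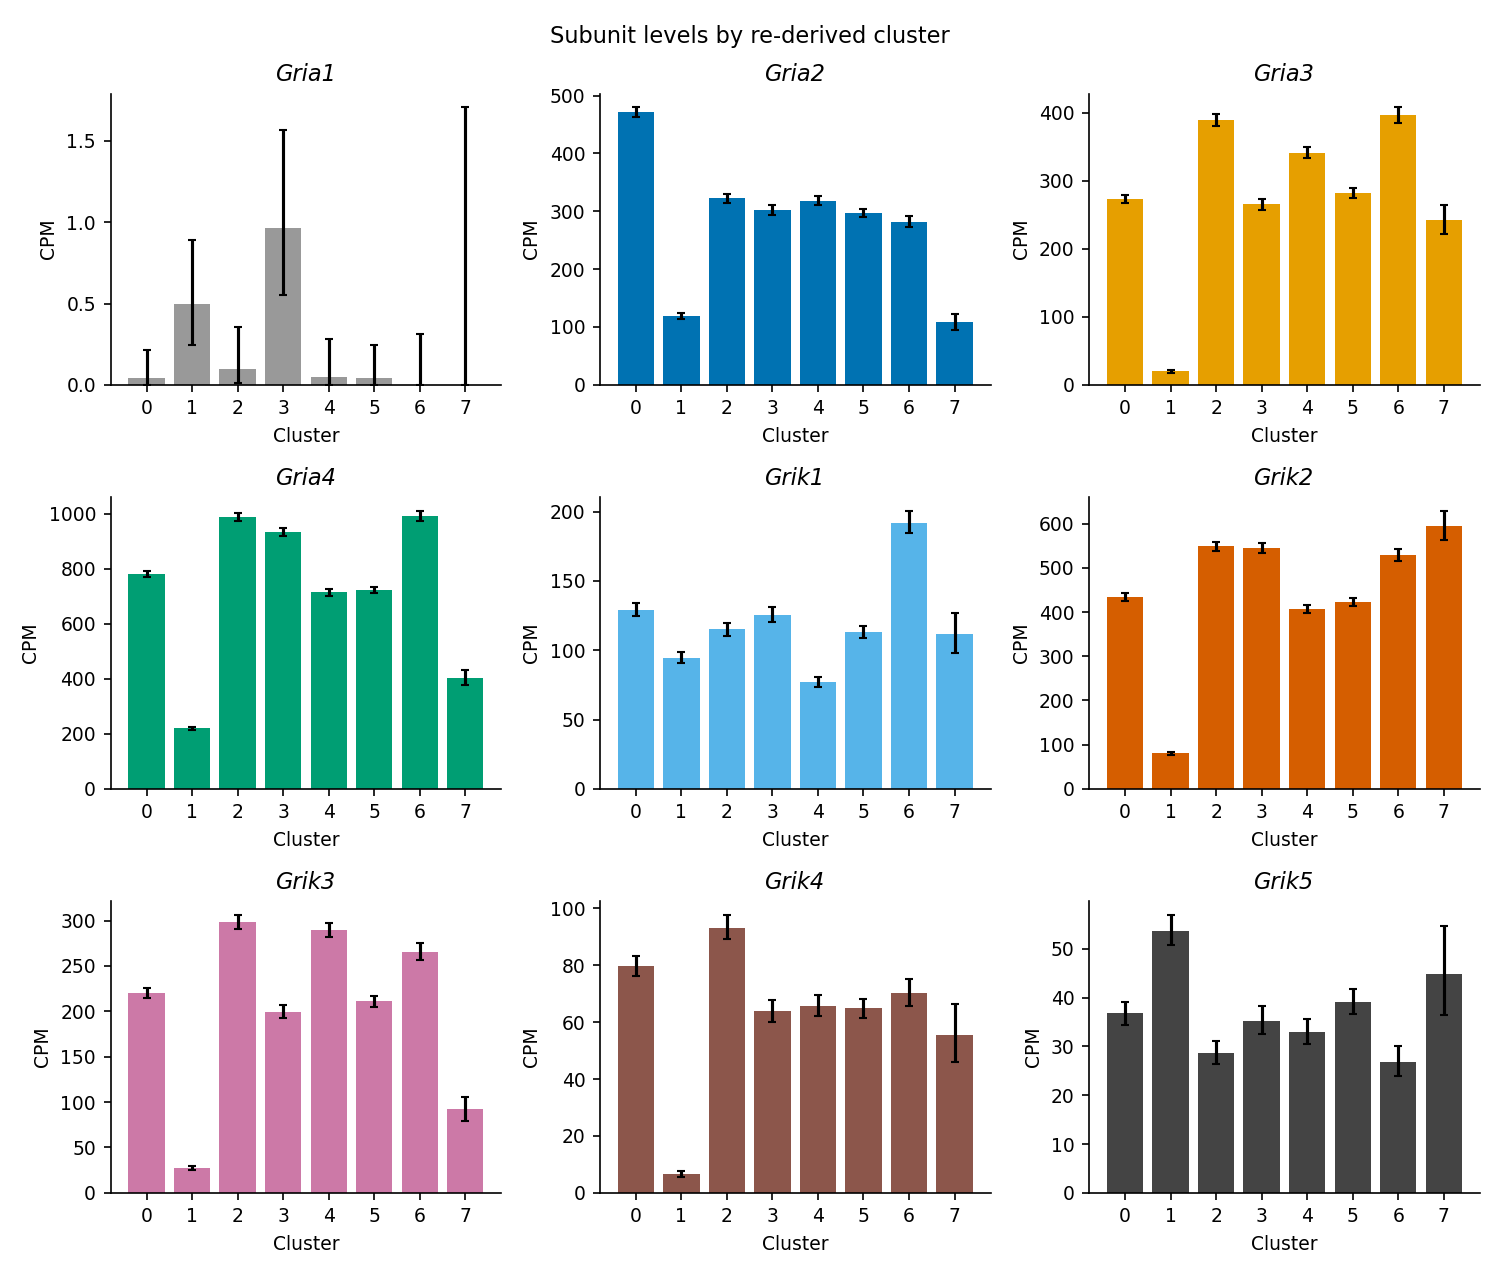
Level of each subunit in the 8 clusters as CPM, with bars for the value over the summed UMIs of a cluster and lines for the 95% exact Poisson interval. *Gria3*, *Gria4*, *Grik2*, *Grik3* and *Grik4* are lowest in cluster 1, *Gria2* is lowest in clusters 7 and 1, and *Grik5* is highest in cluster 1 with 53.7 CPM.

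The share of *Gria2* among AMPA UMIs ran from 14.3% (12.6 to 16.1) in cluster 7 and 16.9% (16.3 to 17.4) in cluster 6 to 30.9% (30.4 to 31.3) in cluster 0 and 33.1% (32.1 to 34.1) in cluster 1. Clusters 2, 3, 4 and 5 had 19.0%, 20.1%, 23.1% and 22.8%, the last 2 with overlapping intervals. The highest shares went with unlike levels. In cluster 0 the level of *Gria2* was the highest of all clusters, with *Gria3* at 1.01 and *Gria4* at 1.08 times their level elsewhere. In cluster 1 *Gria2* was low, but *Gria3* and *Gria4* were lower still relative to other nuclei, and *Gria3* gave only 5.50% of the AMPA UMIs. In cluster 7 *Gria3* gave 32.2%, its largest share in any cluster. Dividing by gene span kept clusters 7 and 1 at the ends, at 31.3% and 59.9%, and dividing by transcript length did too, at 8.86% and 22.9%.

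Within nuclei the order was the same at its lower end. The median *Gria2* share in nuclei with at least 20 AMPA UMIs was 10.5% in cluster 7, from 18 nuclei, and 15.4% in cluster 6. It was 28.6% in cluster 0, where 11.9% of such nuclei had more than 50% *Gria2*, and 25.4% in cluster 1, from 46 nuclei. In the remaining clusters the median was between 17.4% and 21.8%. The nuclei of clusters 1 and 7 had a median of only 3 and 6 AMPA UMIs, so few of them entered this measure, and those that did were the ones with most AMPA UMIs.

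**Figure D3:**
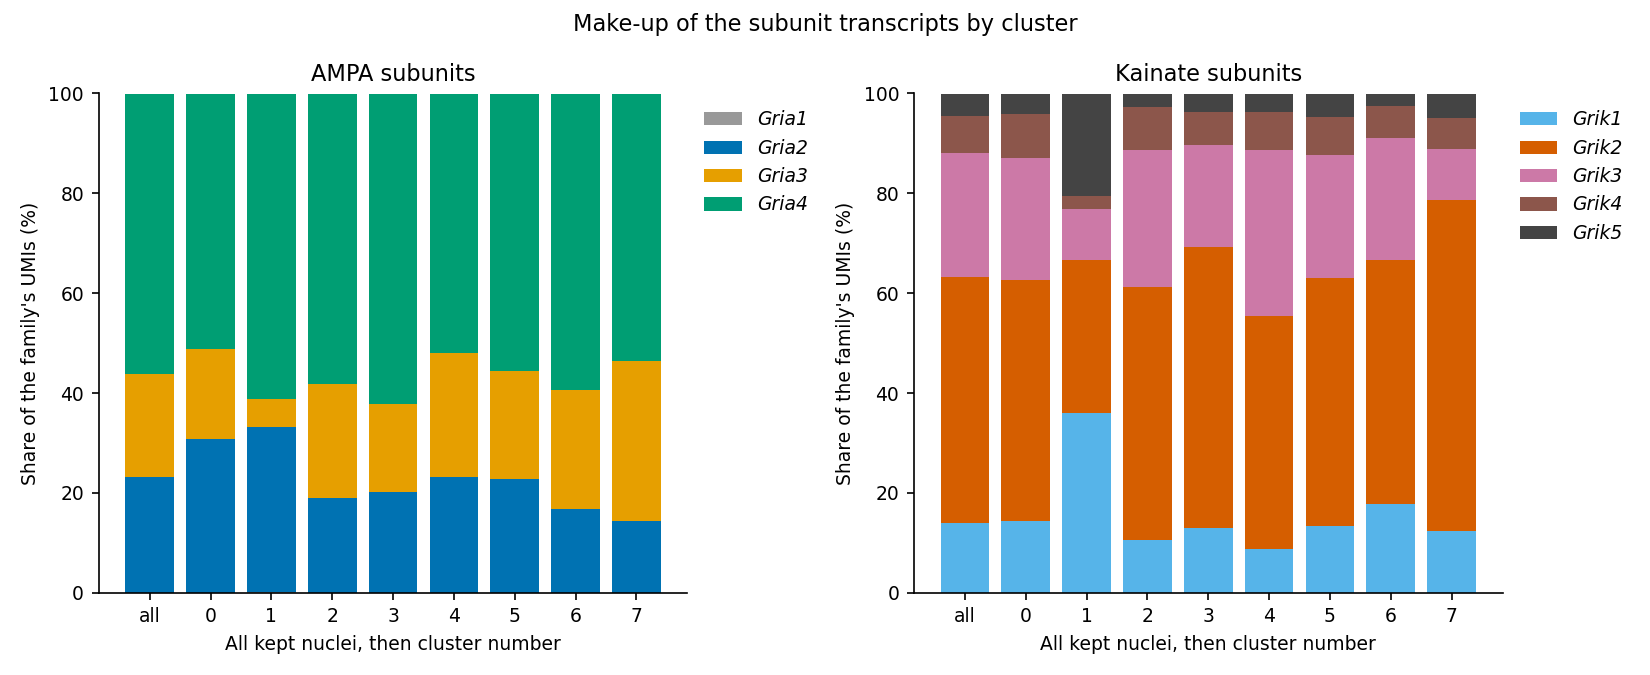
Share of each subunit in the UMIs of its family, in percent, for all kept nuclei and for each of the 8 clusters, as stacked bars. *Gria2* ranges from 14.3% in cluster 7 to 33.1% in cluster 1, and in cluster 1 *Gria3* makes up 5.50% of the AMPA UMIs while *Grik1* and *Grik5* make up 36.1% and 20.5% of the kainate UMIs.

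**Figure D4:**
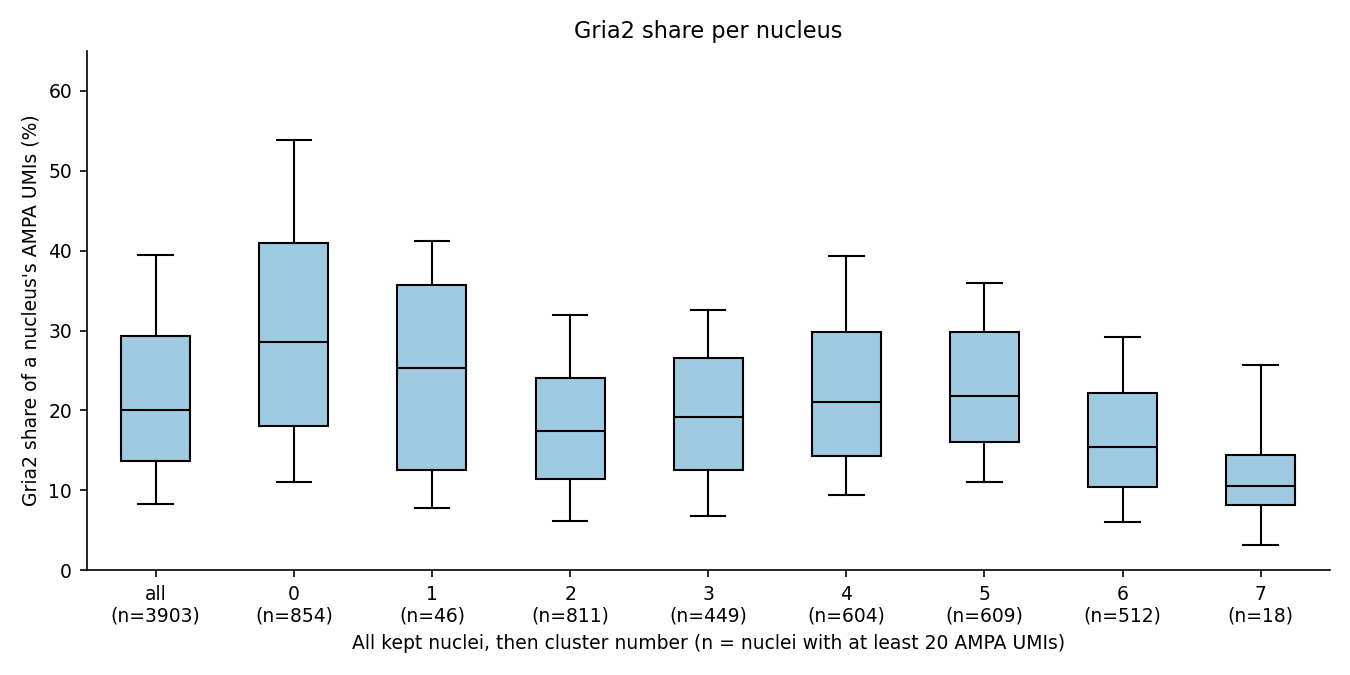
Share of *Gria2* in the AMPA UMIs of single nuclei with at least 20 AMPA UMIs, in percent, for all kept nuclei and by cluster, with the median as a line, the quartiles as a box and the lowest and highest 10% beyond the whiskers. The medians run from 10.5% in cluster 7 to 28.6% in cluster 0.

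The kainate make-up of cluster 1 differed from that of the other clusters too. In all kept nuclei *Grik2* gave 49.3% of the kainate UMIs, *Grik3* 24.9%, *Grik1* 13.9%, *Grik4* 7.49% and *Grik5* 4.44%. In cluster 1 *Grik1* gave 36.1%, *Grik2* 30.6% and *Grik5* 20.5%, whereas *Grik3* and *Grik4* gave 10.3% and 2.53%. *Grik2* was the largest contributor in the other 7 clusters, with 46.7% to 66.2%. *Grik1* was highest in cluster 6, with 192 CPM (184 to 200.1) or 1.75 times the level elsewhere, and lowest in cluster 4, with 77.0 CPM (73.1 to 80.9). *Grik2* reached its highest level in cluster 7, 595 CPM (563 to 628), the same cluster in which *Gria2* and *Grik3* were low.

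Between cell cycle phases the AMPA subunits differed little and *Grik1* more. Phases were scored with Seurat's gene lists on the thinned counts, which gave 2696 G1, 2259 S and 3805 G2/M nuclei. In S phase *Gria2*, *Gria3* and *Gria4* were at 1.07, 0.939 and 1.13 times their G1 level, and in G2/M at 0.929, 0.855 and 0.859 times. The share of *Gria2* among AMPA UMIs was 22.6% in G1, 22.5% in S and 24.0% in G2/M nuclei. *Grik1* was at 175 CPM in S and 95.6 CPM in G1 nuclei, a ratio of 1.84 (1.76 to 1.91; 1.94 in the nuclei of at most 5% mitochondrial UMIs), and at 1.05 times its G1 level in G2/M. Neither this ratio nor any other member passed 2-fold upwards in S (1.37% of genes did), and 0 members were 2-fold lower in G2/M (0.522% of genes were), where *Grik4* had the lowest ratio, 0.706.

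The higher *Grik1* level in S phase recurred inside clusters. Of the 6 clusters with at least 50 nuclei of both phases, the S over G1 ratio was 2.05 in cluster 0, 2.25 in cluster 1, 1.82 in cluster 2, 1.73 in cluster 3, 1.56 in cluster 5 and 1.09 (0.954 to 1.24) in cluster 6. Cluster 6 alone had an interval that includes 1, and its G1 nuclei already had 188 CPM, above the S-phase level of clusters 0, 1, 2 and 5.

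*Gria3* is the X-linked member, and the cells came from pups of either sex, so nuclei with an *Xist* UMI and none from *Ddx3y*, *Eif2s3y*, *Kdm5d* and *Uty* (1867 nuclei) were compared with those of the reverse kind (1681 nuclei). *Gria3* was at 77.3 CPM in the former and 285 CPM in the latter, a ratio of 0.272 (0.259 to 0.285). The autosomal members showed the same direction, with 0.260 for *Grik4*, 0.311 for *Grik3*, 0.323 for *Grik2*, 0.392 for *Gria4* and 0.476 for *Gria2*, so that 6 members were called lower (9.23% of genes were), while the median gene tested was 0.11 higher on the log2 scale. *Grik1* was at 0.818 and *Grik5* at 1.42 times. The low values sat in cluster 1, which held 83.5% of the *Xist*-only nuclei. Outside cluster 1 the ratio of *Gria3* was 0.858 (0.814 to 0.904). The autosomal members of at least 1 CPM ran from *Grik4* at 0.743 to *Grik5* at 1.18 there, with *Gria4* at 0.761 and *Grik1* at 0.956. The median depth there was 24012 UMIs in 308 *Xist*-only and 11654 UMIs in 1676 Y-only nuclei, and its part in these ratios was not tested. Cluster 5 was the only cluster with at least 50 nuclei of both kinds. It was also the deepest, with a median of 30276 UMIs and doublets not removed. Inside it *Gria3* was at 0.781 times, *Grik2* at 0.802 and *Gria4* at 0.809 times, and *Grik4* was lower at 0.696 (0.592 to 0.818). *Grik1* and *Grik5* went the other way, at 1.21 (1.07 to 1.37) and 1.09 (0.892 to 1.33) times.

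Nuclei with *Egfr* and without *Pdgfra* UMIs after thinning had less of the same 6 members than nuclei with *Pdgfra* and without *Egfr*. *Egfr* encodes the EGF receptor and *Pdgfra* the PDGF receptor that marks OPCs. The 1395 nuclei of the first kind and the 4573 of the second had 71.9 and 331 CPM of *Gria3*, a ratio of 0.217 (0.205 to 0.229), and 161 and 351 CPM of *Gria2*, a ratio of 0.459 (0.442 to 0.477). The ratio was 0.268 for *Grik3*, 0.269 for *Grik4*, 0.384 for *Grik2* and 0.453 for *Gria4*, and 6.97% of genes were called lower, with the median gene 0.15 higher on the log2 scale. Median depth was 11489 UMIs in the former and 15190 UMIs in the latter nuclei. *Grik1* was at 0.874 and *Grik5* at 1.51 times. Cluster 1 held 73.3% of the *Egfr* nuclei. Outside it the ratios were 0.668 for *Gria3*, 0.707 for *Grik3*, 0.778 for *Gria2*, 0.951 for *Gria4* and 0.981 for *Grik2*, and 0 members remained past 2-fold among those of at least 1 CPM. Inside cluster 1 only 39 nuclei had *Pdgfra* without *Egfr*. There the ratio of *Gria3* was 0.110 (0.0829 to 0.146), and *Grik4*, *Grik3* and *Grik2* were also called lower, at 0.264, 0.288 and 0.316 times. The share of all genes called outside or inside cluster 1 was not counted, so these calls have no background. Over the nuclei of at most 5% mitochondrial UMIs, 242 against 989, only *Grik4* (0.475) and *Gria3* (0.478) were called lower. *Gria2* was at 0.560, *Grik3* at 0.556, *Gria4* at 0.732 and *Grik2* at 0.742 times. The share of all genes called in this subset was not counted.

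**Figure D5:**
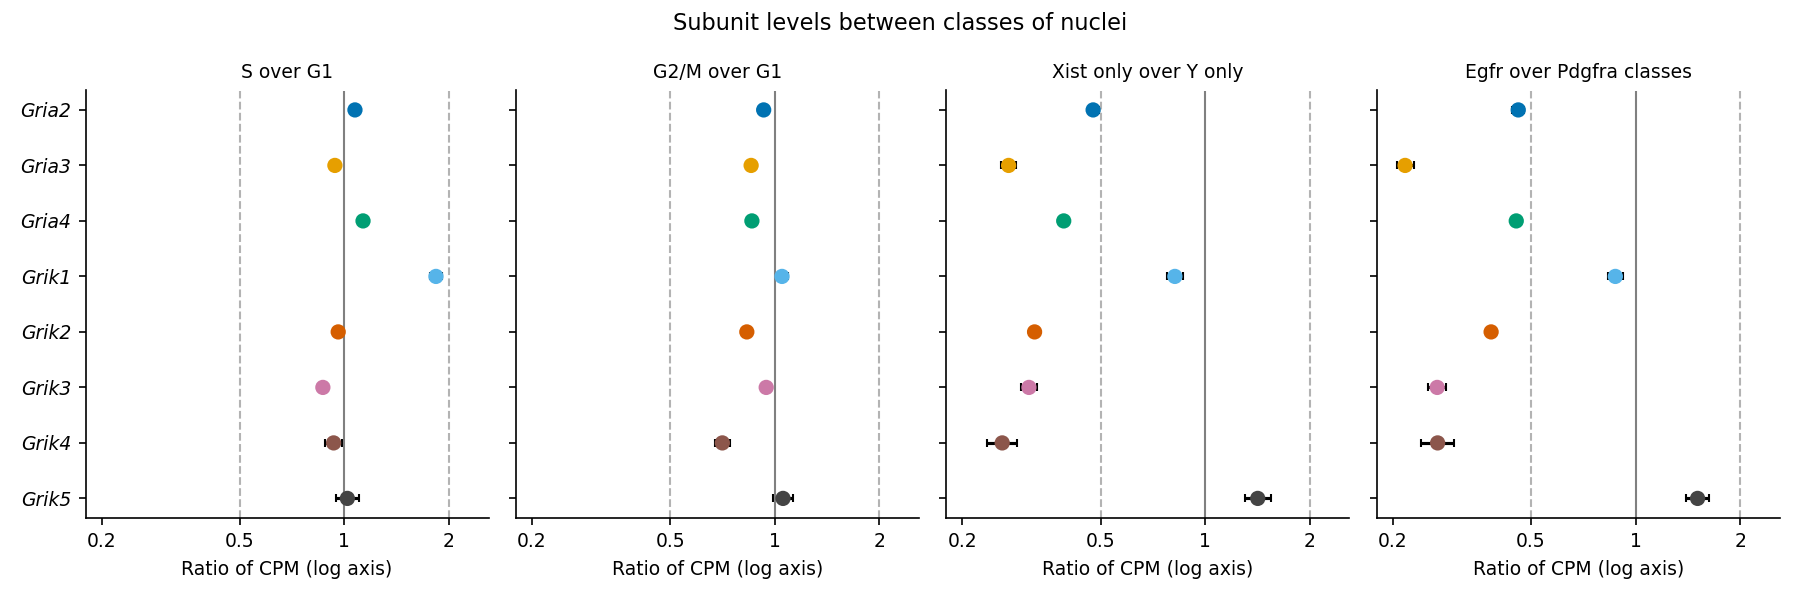
Ratio of CPM between classes of nuclei for the 8 members of at least 1 CPM, on a log axis, with points for the ratio and lines for the exact conditional 95% interval, dashed lines at 0.5 and 2. *Grik1* stands out in S over G1 at 1.84, and in the comparisons of *Xist* and Y-linked and of *Egfr* and *Pdgfra* nuclei 6 members lie below 0.5 while *Grik5* lies at 1.42 and 1.51.

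Receptor subunits reach the membrane with auxiliary proteins, and of 16 listed AMPA auxiliary genes 12 reached 1 CPM and 8 reached 10 CPM. Of the TARPs, the family that traffics and gates AMPA receptors, *Cacng4* was at 180.0 CPM, *Cacng7* at 27.6 and *Cacng8* at 16.9, while *Cacng2*, which encodes stargazin, had 9 UMIs. *Shisa6* and *Shisa7*, which also bind AMPA receptors, were at 80.8 and 21.4 CPM, *Frrs1l*, an assembly factor, at 30.4 and *Cpt1c* at 12.2 CPM. The counts of this list include *Sys1*, at 76.1 CPM, which is not an established AMPA receptor auxiliary gene and was called in 0 clusters. In cluster 1 *Cacng4*, *Cacng7*, *Shisa6*, *Shisa7* and *Frrs1l* had ratios of 0.342, 0.495, 0.276, 0.0740 and 0.118, and *Shisa9* was at 10.2 CPM, 6.60 times its level elsewhere. Over the 12 genes of at least 1 CPM, 8 were called lower and 3 higher in at least 1 cluster, against 28.8% and 20.8% of all genes, so that the share called higher was near that of all genes. Of the kainate auxiliary genes, *Neto1* was at 616 CPM, with 75.8 CPM in cluster 1 (ratio 0.106) and a ratio of 0.481 in cluster 7, whereas *Neto2* ran between 160.0 and 228 CPM and was highest in cluster 1.

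ADAR2, the enzyme of the Q/R site, is encoded by *Adarb1*, which was at 28.4 CPM (27.5 to 29.3), with its lowest value, 16.2 CPM, in cluster 7 and its highest, 36.4 CPM, in cluster 2. *Adar*, which encodes ADAR1, was at 28.2 CPM and ran from 23.1 to 37.0 CPM. Neither was past 2-fold in any cluster. *Adarb2*, whose product is not known to edit, was at 63.3 CPM. It was lowest in cluster 2 with 2.91 CPM and highest in cluster 3 with 219 CPM, followed by cluster 0 with 125 CPM. The *Adarb1* value of cluster 7 rests on 35 UMIs, its interval (11.3 to 22.5 CPM) overlaps those of clusters 1 and 3, and editing itself was not measured.

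Of the 9 other ionotropic glutamate receptor genes, 7 reached 1 CPM, of which 3 were called higher and 7 lower in at least 1 cluster (20.8% and 28.8% of all genes). *Grid1* was low in cluster 1 as well, at 107 CPM (ratio 0.357), against 269 CPM in all kept nuclei. The NMDA subunits *Grin2a* and *Grin2b* were high there, with 145 and 49.8 CPM in cluster 1 and ratios of 33.0 and 13.5. *Grin1*, the subunit that NMDA receptors require, was at 3.21 CPM and at most 5.37 CPM in a cluster, and *Grin3a* was at 103 CPM with 219 CPM in cluster 3 and 40.2 CPM in cluster 7.

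Scaffold and trafficking genes link the receptors to the membrane and the cytoskeleton. Of 10 listed genes 9 were matched by symbol and 8 reached 10 CPM, namely *Grip1*, which binds the tail of GluA2 and GluA3, at 523 CPM, *Dlg1* at 132, *Nsf* at 102, *Gripap1* at 60.5, *Dlg2* at 60.3, *Dlg4* at 43.6, *Pick1* at 17.3 and *Dlg3* at 12.1 CPM. Of these, *Dlg2* alone was called in a cluster (35.0% of all genes were), lower in cluster 1 at 0.159 times and higher in cluster 3 at 2.10 times. *Grip1* had 312 CPM in cluster 4 and 996 CPM in cluster 7, its lowest and highest values.

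Among 7 listed genes of secreted or membrane synaptic organisers, not all of which bind these receptors, 5 reached 1 CPM. Of these, 4 were called higher and 4 lower in at least 1 cluster (20.8% and 28.8% of all genes). *Nptx1*, a pentraxin that gathers AMPA receptors, was at 19.9 CPM and at 78.2 CPM in cluster 1, 8.59 times its level elsewhere, and *Nptx2* was at 30.1 CPM in cluster 7, 18.6 times. *Nptxr* was at 13.8 CPM and within the limits in all clusters, and *C1ql3* was at 25.3 CPM, lowest in cluster 1 with 3.93 CPM and highest in cluster 2 with 48.1 CPM. The 3 glutamate uptake genes *Slc1a3*, *Slc1a1* and *Slc1a2* were at 237, 48.04 and 13.7 CPM, and each was called lower in at least 1 cluster (28.8% of all genes). *Slc1a1* and *Slc1a2* were low in cluster 1, at 0.0552 and 0.240 times, and *Slc1a3* in clusters 0 and 7, at 0.417 and 0.462 times. Of 8 metabotropic receptor genes 5 reached 1 CPM, with 4 called higher and 3 lower in at least 1 cluster (20.8% and 28.8% of all genes). *Grm5* was at 197 CPM and at 338 CPM in cluster 1, and *Grm7* at 13.9 CPM, with 25.7 CPM in cluster 3. *Grm3* was at 13.2 CPM in cluster 1 (ratio 2.01) and *Grm8* at 24.0 CPM in cluster 7 (ratio 3.39).

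Between nuclei, members varied together only weakly. Pearson's r over the 8760 thinned nuclei, on the scale of log(1 + UMIs), was highest for *Gria3* and *Gria4* at 0.355, *Gria4* and *Grik2* at 0.333, and *Gria3* and *Grik2* at 0.284. *Gria2* had r of 0.230 with *Gria4* and 0.175 with *Gria3*, and *Grik5* had values between -0.0465 (*Gria4*) and 0.00559 (*Gria1*) with the other members. These nuclei share 1 library and hold few UMIs per gene, so the values are descriptions. Among the 7355 genes of at least 20 CPM, those most like *Gria2* were *Lhfpl3* (r = 0.365), *Sox2ot* (0.362) and *Pcdh15* (0.336). *Gria3* was nearest to *Cntn1* (0.485), *Dcc* (0.472) and *Sox6* (0.436), *Gria4* to *Dcc* (0.525), *Kcnd2* (0.520) and *Cntn1* (0.508), and *Grik2* to *Dcc* (0.494), *Cntn1* (0.486) and *Anks1b* (0.466). For *Grik3* the nearest genes were *Cntn1* (0.426), *Dcc* (0.389) and *Mmp16* (0.371), and for *Grik4* they were *Cntn1* (0.244), *Lhfpl3* (0.238) and *Anks1b* (0.235). *Grik1* had no value above 0.169 (*Csmd1*, followed by *Rbfox1* at 0.166), and *Grik5* none above 0.0716 (*Npas3*, followed by *Igfbp2* at 0.0681 and *Lrrc7* at 0.0647).

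Barcodes outside the cutoffs had a similar subunit make-up. The 918 barcodes under 2000 genes had a median of 1717 UMIs, 19.5% mitochondrial UMIs, 1388 CPM of AMPA subunits and a *Gria2* share of 24.6% (22.9 to 26.3). The 212 barcodes over 8000 genes had 1253 CPM and 22.7% (22.1 to 23.4). *Gria1* had 4 and 1 UMIs in them.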

How the data were processed

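1 snRNA-seq library of BB-p53n OPCs in culture was used. The authors ran Cell Ranger 8.0.1 on mm39, per the submitters' processing notes, and deposited its UMI counts, which are not normalized. The 3 early and 3 late tumor samples were not analysed here. From these counts, barcodes with 2000 to 8000 genes were kept and clustered with Seurat 5.3.0 in R 4.3.3 (log-normalized at scale 1000, 3000 most variable genes, total counts regressed out, 20 principal components, 200 neighbors, resolution 1). Levels are summed UMIs as CPM, with 95% exact Poisson intervals, exact binomial intervals for shares and exact conditional binomial intervals for ratios. These cover counting error only. With 1 library no test was run. Ratios of at least 2 or at most 0.5 were called among genes of at least 1 CPM. Phases used 43 S and 54 G2/M genes. Scrublet in scanpy 1.11.5 called 0 of 8917 nuclei by its automatic threshold, so its calls had not worked and no doublets were removed. Gene spans, transcripts and the Q/R windows are from GENCODE vM39 on GRCm39, which is mm39, where 33185 of 33696 gene identifiers were found. The Q/R codon was found in the translated canonical transcripts, before the conserved channel gate. All 9 members are named. Of the related genes those of at least 10 CPM, or called in a cluster with at least 10 CPM there, are named, and *Cacng2*, *Grin1* and *Gsg1l* were added after their values were seen. 1 gene that these rules select is not reported here. The members and lists were chosen with earlier results of these data known. Intervals and ratios were tested on simulated Poisson counts, which hold no variation between nuclei beyond counting. The alternatives were other cutoffs, the 5% mitochondrial limit, removal of the highest Scrublet scores, other length scales, thinning depths, clusterings, classings and CPM minima.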

Additional observations from a re-analysis of the deposited data

How the results depend on the processing

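No paired analysis was possible because the groups that share replicate numbers were not analysed here and the OPC library is 1 sample. The nuclei the study kept match, in number and mean depth, those of at most 5% mitochondrial UMIs, and except for the number of members past 2-fold in a cluster each summary value recomputed on them moved. With these 1954 nuclei, the *Gria2* share of AMPA UMIs was 25.5%, the summed levels were 1395 CPM for AMPA and 876 CPM for kainate subunits, the range of the share between clusters was 23.5 points (18.8 in the report) and the *Gria3* ratio of *Xist*-only over Y-only nuclei was 0.361. The kainate sum was 833 CPM over all barcodes and 831 CPM with 3000 to 7000 genes. Length scales gave *Gria2* shares of 46.1% per span and 15.1% per transcript. A *Gria2* UMI was seen in 52.7% of nuclei at 3000 UMIs and in 86.8% without thinning. With 20 neighbors, which gave 16 clusters, the range was 21.9 points. Alternatives chosen after seeing the data gave *Gria3* ratios of 0.858 outside cluster 1 and 0.781 within cluster 5. Those ratios came from other sets of nuclei, and the cause of these and of the other moves was not tested. Most moves are small, since a value counts as moved once outside its counting interval, which is narrow at this depth. Some ratios near 1 crossed it on the 1954 nuclei. *Gria3* in S over G1 went from 0.939 to 1.00, and *Grik1* in *Egfr* over *Pdgfra* nuclei from 0.874 to 1.02. In a cluster, 6 members were past 2-fold at a minimum of 1 CPM (35.0% of genes) and of 10 CPM (22.4%). Added after seeing the data, 6 members were past it on the 1954 nuclei (46.6%). On the 1954 nuclei, 2 in place of 6 members were called lower in *Egfr* over *Pdgfra* nuclei, where the share of all genes called was not counted. Counts below 3 UMIs, as for *Gria1* in most clusters, cannot rank clusters.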

Other observations

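The 32 *Gria1* UMIs were unevenly spread. In cluster 3 there were 16, of which 9 in 1 nucleus, and in cluster 1 there were 11, with 0 to 2 in each other cluster. Of the 32, 21 were in nuclei with *Egfr* and without *Pdgfra*, and 5 in nuclei with *Pdgfra* and without *Egfr*, which had 1.16 (21 UMIs) and 0.0633 CPM (5 UMIs). The 21 include the 9 UMIs of the 1 nucleus in cluster 3, so the higher value rests in good part on that nucleus. Of the 18 nuclei with a *Gria1* UMI, 3 had more than 1.

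*Gsg1l*, an AMPA auxiliary gene below 1 CPM in the kept nuclei, had 15 of its 106 UMIs in cluster 7, which makes 6.94 CPM there. That cluster also had the lowest *Gria2* share. In the same cluster *Grip1* was at 996 CPM.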
